A study of Mus musculus with 44 samples.

Results

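The mitochondrial ribosomal protein genes were defined here as the protein-coding genes of the TRAP-seq count table whose symbol begins with Mrpl or Mrps followed by a digit. The rule found 78 of the 55335 genes counted, and it used no measured value. Of these, 51 encode proteins of the large subunit and 26 proteins of the small subunit of the mitochondrial ribosome. The remaining gene, Mrps36, carries the family's name but encodes a component of the 2-oxoglutarate dehydrogenase complex. A further 5 genes with such a symbol were not annotated as protein-coding and were left out.

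The libraries came from hippocampi of male Emx1-NuTRAP mice, which carry an Emx1-Cre allele and the NuTRAP reporter. Cre recombination lets cells of the Emx1 lineage, most of which are excitatory neurons, make a tagged ribosomal protein with which the mRNA on their cytosolic ribosomes is captured (TRAP). Mice of the early-life exercise (ELE) group had a running wheel from postnatal day 21 to 41, and sedentary mice, which carried the same alleles, had none. The 20 libraries, each from 1 mouse, comprised 4 ELE and 4 sedentary libraries from simultaneous isolation of RNA and nuclei from both hippocampi (SIT), and 3 ELE and 3 sedentary libraries from each of the separately isolated left and right hippocampi.

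Mitochondrial ribosomes translate the 13 proteins encoded by the mitochondrial genome, all of them subunits of the respiratory chain and ATP synthase. Their ribosomal RNAs are transcribed inside the organelle, whereas every ribosomal protein is encoded in the nucleus, translated on cytosolic ribosomes and imported. A level measured by TRAP is therefore that of mRNA captured with cytosolic ribosomes, and does not report on translation inside mitochondria. The amount of an mRNA and its rate of translation cannot be told apart in it. Many members have a counterpart in bacterial ribosomes, while others are found only in mitochondrial ribosomes. Neurons depend on mitochondrial ATP for ion pumping and synaptic transmission, which is the background for asking whether running in early life altered these transcripts.

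The libraries held 45895097 to 65767802 counts each. The summed level of 6 excitatory neuron markers was 6680 to 10117 CPM, the counts scaled to library size, in the 20 libraries. For 6 interneuron markers it was 40.5 to 108 CPM in 18 libraries and 817 and 854 CPM in those of sedentary SIT mice NT7.2.3 and, respectively, NT7.2.4. In the same pair of libraries 5 microglia markers summed to 145 and 154 CPM, against 1.503 to 8.14 CPM in the other 18, and the mitochondrial chromosome took 8.64% and 9.64% of the counts, against 0.0704% to 0.523%. The study left out these 2 libraries for ribosomal and other non-mRNA sequence and that of ELE mouse NT6.304 for its place in a principal component analysis. The SIT comparison accordingly used 3 ELE and 2 sedentary libraries, and values for all 8 are given beside it. In bulk libraries such as these, fewer cells of a type and less RNA per cell cannot be told apart.

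All 78 members were detected and passed the filter on low counts. Their mean level over the 20 libraries ranged from 0.573 CPM for Mrpl53 to 97.7 CPM for Mrpl48, with a median of 31.1 CPM. Levels of different genes were compared per length, as CPM per kilobase of annotated exon. On that scale the median member stood at 12.03 and the median of all 19935 genes tested at 2.25. The large subunit genes had a median of 13.03 and the small subunit genes of 8.13 CPM per kilobase.

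The highest level per length was that of Mrps12, on chr7:28739641-28741820 (GRCm38, minus strand), at 58.2 ± 10.6 CPM per kilobase (SD, n = 20). Its protein lies at the decoding centre of the small subunit, where codon and anticodon are matched. Mrpl12, on chr11:120484613-120489065, encodes the stalk protein that recruits translation factors to the large subunit, and its level was 57.8 ± 11.1. Mrps21, on chr3:95862634-95871519, reached 54.5 ± 12.1. The SDs describe the spread over libraries that these genes share, and differences between the genes were not tested. Mrpl34 followed at 49.5 ± 8.64 and Mrpl54 at 38.4 ± 6.82 CPM per kilobase. With the length of the longest transcript in place of the whole exonic length, Mrps21 moved to the top at 82.6 and Mrps12 to the third place at 68.6.

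**Figure D1:**
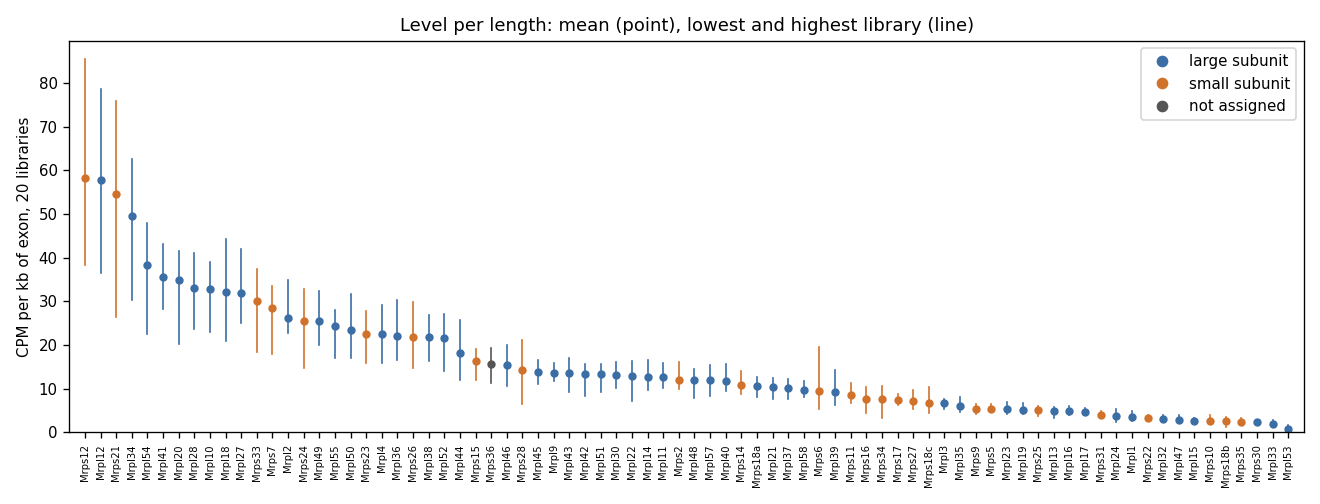
Mean level of each of the 78 mitochondrial ribosomal protein genes in CPM per kilobase of exon (point) with the lowest and highest of the 20 libraries (line), ordered by level and coloured by subunit. Mrps12, Mrpl12 and Mrps21 stand highest, between 54.5 and 58.2, and Mrpl53 lowest at 0.725.

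At the other end, Mrpl53 reached 0.725 ± 0.418 CPM per kilobase, with 0 counts in 1 library. Of the 790 exonic bases of Mrpl53, 695 are shared with another gene on the same strand, and pairs falling there could not be assigned to it, so its level is uncertain. Mrpl33 (1.98), Mrps30 (2.36), Mrps35 (2.43) and Mrps18b (2.52) were the next lowest by exonic length. This order depends on the length used, as Mrpl33 has 7326 exonic bases and a longest transcript of 2741. Mrps30 is, despite its symbol, a protein of the large subunit. Exons on the same strand as another gene were also annotated for Mrps34, Mrps6, Mrpl33, Mrps18c, Mrpl3, Mrps24 and Mrpl51, over 87 to 763 bases.

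The S18 paralogues share a name because they correspond to the same bacterial protein. Mrps18a encodes a large subunit protein and Mrps18b and Mrps18c encode small subunit proteins, and their levels were 10.6, 2.52 and 6.79 CPM per kilobase. Within the 4 groups of separate isolation the median coefficient of variation of a member's CPM was 8.67%. It was 17.5% over all genes tested and 10.0% over the 2488 genes whose mean CPM lay within the members' quartiles.

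The members were spread over 17 chromosomes, with 11 on chromosome 11, 8 on chromosome 17 and 7 on chromosome 6. Their exonic length had a median of 2394 bases, against 4348 for the protein-coding genes tested. For 33 of the 78 members (42.3%) a gene on the opposite strand starts within 1000 bases of the member's own start, an arrangement found for 14.4% of the 15558 protein-coding genes tested. One such pair joins both subunits: Mrps11, on the plus strand of chr7:78783119-78792989, and Mrpl46, on the minus strand of chr7:78775236-78783531. Mrps12 lies in this way beside Sars2, the mitochondrial seryl-tRNA synthetase, Mrpl43 beside Twnk, the helicase that copies mitochondrial DNA, and Mrpl36 and Mrpl47 beside the complex I genes Ndufs6 and Ndufb5. Counting used strand, so reads of a pair on opposite strands were kept apart.

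Promoter windows of 250 bases before to 50 bases after the start site (RefSeq, GRCm38.p6) were given for 69 of the 78 members. They were searched on both strands for 4 short motifs of factors known for nuclear genes of mitochondrial proteins or for housekeeping promoters: GCGCATGC of NRF1, CCGGAAG of ETS factors such as GABPA, AANATGGC of YY1, and CCAAT of NF-Y. Of the 69 members 66 had 1 window, and a gene with more was counted once if any of its windows held the motif. The YY1 motif was found for 21 of the 69 members (30.4%), against 8.82% of 12059 tested protein-coding genes with a window. The ETS motif was found for 26 members (37.7% against 17.4%) and the NRF1 motif for 8 (11.6% against 5.37%). CCAAT was found for 27 (39.1% against 42.4%). For 15 members (21.7% against 41.0%) none of the 4 was present. The shares depended on the window. In the 250 bases before the start site alone, the YY1 motif was found for 7 members (10.1% against 4.78%). The ETS motif was found there for 18 (26.1% against 13.7%), the NRF1 motif for 8 (11.6% against 4.54%) and CCAAT for 25 (36.2% against 40.0%).

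The following sites are shown because they hold the motif letters in capitals, each within 30 bases read on the gene's strand. The first 4 contain the NRF1 motif and lie before the start sites of 4 large subunit genes, at chr7:105811080-105811109 (minus strand), chr11:58171620-58171649 (plus strand), chr13:14613106-14613135 (minus strand) and chr3:94443297-94443326 (plus strand).
Mrpl17: gccgagttactGCGCATGCgtcctctgaga
Mrpl22: ggcctcggactGCGCATGCgtatagtcagc
Mrpl32: ctttgacccttGCGCATGCgcaagaggggc
Mrpl9: gaggcgcagctGCGCATGCgcggggtcctt
The flanks of these 4 sites differed while the core was identical by construction of the search. Mrpl32 held the letters at 4 positions in its window, counting both strands, and 2 of these overlapped each other.

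The next 3 contain the ETS motif, at chr11:58171600-58171629 (plus strand), chr8:71464878-71464907 (plus strand) and chr2:130563732-130563761 (plus strand, motif on the opposite strand). The last 2 contain the YY1 motif, at chr7:78783013-78783042 (plus strand, motif on the opposite strand) and chr11:115604147-115604176 (plus strand).
Mrpl22 ETS: cttttccggtcCCGGAAGccggcctcggac
Mrpl34 ETS: aactacagctcCCGGAAGgccccgcggcaa
Mrps26 ETS: ctccgcggccaCTTCCGGgccgggcgcagg
Mrps11 YY1: ctacgggcgccGCCATCTTtctgtcttccc
Mrps7 YY1: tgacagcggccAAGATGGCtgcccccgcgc
In Mrpl22 the ETS letters lie 53 and the NRF1 letters 33 bases before the start site. The YY1 site of Mrps7 lies after the start site, as did the YY1 letters in 16 members, against 7 with the letters before it. A match of letters describes the sequence and does not show that a factor bound there.

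The first question was whether ELE altered these transcripts in the libraries that the study compared by simultaneous isolation. The levels of ELE and sedentary mice were nearly the same. Of the 78 members, 35 had a higher and 43 a lower estimate in ELE mice, and the median log2 fold change was -0.02, against 0.0012 over all genes tested. The study's limits were p under 0.05, not adjusted, and a log2 fold change of more than 0.39 in size (the exact limit stands a little below this rounded value). At these limits no member was called higher and 1, Mrpl24, was called lower. Over all 18238 genes tested, the same limits called 1.54% higher and 2.11% lower, so the share of members called was not above the background. The estimates of 71 members lay within 0.25 of 0 on the log2 scale, and their median standard error was 0.14.

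Mrpl24, on chr3:87919506-87923672, encodes a protein at the exit tunnel through which the new chain leaves the large subunit. Its levels were 7.79, 5.62 and 6.25 CPM in the ELE mice and 9.55 and 8.94 CPM in the sedentary mice, so that each ELE library was below each sedentary one. The log2 fold change was -0.50 (SE 0.22), and the adjusted p of the edgeR quasi-likelihood test was 0.906. The call was lost with DESeq2, with which the log2 fold change was -0.49. It was also lost when TG7.4.1, TG7.4.2 or either sedentary library was left out, with log2 fold changes of -0.39 without TG7.4.1, -0.46 without TG7.4.2, -0.45 without NT6.305 and -0.54 without NT6.306, and was kept without NT6.303, at -0.64. In the 4 NT6 mice alone it was -0.26, and not called. In the ELE library that the study left out, Mrpl24 stood at 7.59 CPM. In separate isolation its log2 fold change was -0.17 on the left (SE 0.17) and 0.07 on the right (SE 0.16).

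Mrps11, a small subunit protein of the platform, had the smallest p of the members. Its levels were 15.7, 18.1 and 19.7 CPM in ELE mice and 24.5 and 22.1 CPM in sedentary mice, and its log2 fold change of -0.39 (SE 0.16) lay just short of the fold limit, while its unadjusted p passed. Mrpl14 (-0.40, SE 0.18) and Mrps27 (-0.39, SE 0.21) lay past the fold limit and did not pass on p, and Mrpl44 (0.30, SE 0.15) passed neither limit. The adjusted p of these 4 members was 0.905 to 0.932 with edgeR. In the library of NT6.304, Mrps11 stood at 22.9 CPM, within the sedentary values, and with it added the log2 fold change of Mrps11 was -0.28. Groups did not overlap for 12 of the 78 members (4 with ELE above and 8 with ELE below), against 22.1% of all genes tested with groups of this size.

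The other members with a named role were not called in SIT. For the stalk and factor-binding proteins the log2 fold changes were -0.02 (Mrpl10), -0.05 (Mrpl11) and -0.04 (Mrpl12). At the exit tunnel they were -0.05 (Mrpl22), -0.15 (Mrpl23) and 0.04 (Mrpl45, which faces the inner membrane), beside the -0.50 of Mrpl24. Mrps12 at the decoding centre had -0.12 and Mrpl58, a peptidyl-tRNA hydrolase that rescues stalled ribosomes, 0.0020. Of these, Mrpl24 alone passed the limits. Mrps36, the component of the dehydrogenase complex, had -0.19 (SE 0.15). Genes of the large subunit had a median of -0.04, and those of the small subunit 0.0088.

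Levels of other cell types also differed between these SIT libraries. The 4 choroid plexus markers summed to 128 to 575 CPM in the ELE mice and 584 and 669 CPM in the sedentary mice, and the 4 red cell markers to 3.13 to 11.8 CPM and to 28.6 and 24.6 CPM. Of the 6 excitatory neuron markers 5 had a positive estimate (median 0.17) and 1 was called higher, and of the 6 interneuron markers 5 had a negative estimate (median -0.37) and 1 was called lower. All 5 oligodendrocyte markers had a negative estimate (median -0.13), and of these and the astrocyte, microglia and endothelium markers none was called. Of the 4 choroid plexus markers 3 were called lower (median -0.99). Of the 4 red cell markers 3 were called lower (median -1.72), and 1 had a positive estimate of 1.06. No marker passed an adjusted p under 0.05 in edgeR. The part of these lists in the member values was not tested. The 13 protein-coding genes of the mitochondrial genome all had a positive estimate in ELE mice, with a median of 0.18. None of them had an unadjusted p under 0.05 in edgeR. Their sums overlapped, with 2321, 3406 and 4896 CPM in ELE and 3896 and 2210 CPM in sedentary libraries. These genes varied closely together (median pairwise r 0.896 over the 17 libraries the study kept), so they are not 13 separate observations. With all 8 SIT libraries all 13 were negative (median -3.73).

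The left hippocampus was compared next, with 3 libraries per group. Again the members were nearly level, with 44 positive estimates and a median log2 fold change of 0.01. No member was called in either direction by edgeR or by DESeq2, where 1.1% of the 17750 genes tested were called higher and 0.963% lower. Under edgeR 5 members had an unadjusted p under 0.05, as did 699 of the 17750 genes tested, and the lowest adjusted p was 0.960. The estimates of 75 members lay within 0.25 of 0.

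Mrps2, on chr2:28468066-28471178, encodes a small subunit protein and had the smallest p on the left. It stood at 33.5, 34.5 and 35.3 CPM in ELE mice and at 30.2, 28.8 and 29.2 CPM in sedentary mice, without overlap. The difference was 0.23 on the log2 scale (SE 0.08), below the fold limit, and its adjusted p with edgeR was 0.960. On the right the same gene stood at 32.9, 30.7 and 31.2 CPM against 33.6, 31.8 and 31.7 CPM, and the log2 fold change was -0.03. The other members with a p under 0.05 on the left had log2 fold changes of 0.23 (Mrpl46), -0.28 (Mrpl14), -0.20 (Mrpl57) and -0.22 (Mrpl27). Groups did not overlap for 11 members (6 with ELE above, 5 below), against 10.8% of all genes tested.

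Mrpl14, a large subunit protein, had a negative estimate in SIT and in each hemisphere. On the left it stood at 10.9, 10.5 and 11.3 CPM in ELE mice and 12.9, 13.5 and 13.4 CPM in sedentary mice. On the right the values were 11.2, 10.8 and 10.5 CPM against 11.9, 15.7 and 9.19 CPM, with overlap. Over both hemispheres the log2 fold change was -0.23 (SE 0.11, adjusted p = 0.924 with edgeR), which did not pass.

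In the right hippocampus 34 members had a positive estimate, and the median log2 fold change was -0.0044. No member was called by edgeR or DESeq2, where 0.746% of the 17570 genes tested were called higher and 1.23% lower. In edgeR 488 of all genes tested and 1 member had an unadjusted p under 0.05. That member was Mrpl54, a large subunit protein found only in mitochondria. Its levels were 29.8, 26.9 and 25.8 CPM in ELE mice and 37.6, 37.2 and 28.4 CPM in sedentary mice, and the groups overlapped. The log2 fold change of -0.32 (SE 0.13) was short of the fold limit, and with TG9.2.3 left out the gene was called. Its adjusted p with edgeR was 0.99976 in the comparison of all 6 libraries. Groups did not overlap for 8 members (2 above, 6 below), against 7.69% of all genes tested.

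By class, the members found only in mitochondrial ribosomes had a positive estimate for 6 of 29 on the right (median log2 fold change -0.06) and for 19 of 29 on the left (median 0.05). The members with a bacterial counterpart were positive for 27 of 47 on the right and 24 of 47 on the left, with medians of 0.01 and 0.0024. These counts are descriptions, and single members did not pass the limits. On the right, all 4 choroid plexus markers (median log2 fold change -3.19) and all 3 red cell markers tested (median -1.01) were called lower in ELE mice. The choroid plexus markers summed to 17.3 to 42.7 CPM in the right ELE libraries and to 34.9, 83.4 and 1153 CPM in the right sedentary ones. Of the 4 endothelium markers, 1 was called lower on the right (median -1.83), and 1 right sedentary library reached 22.4 CPM in their sum. Of the 6 interneuron markers 5 had a positive estimate on the right (median 0.37) and 1 was called higher, and of the 4 microglia markers tested 1 was called lower (median -0.16). No excitatory neuron, astrocyte or oligodendrocyte marker was called on the right, and no marker passed an adjusted p under 0.05 in edgeR. On the left no marker of the 8 lists was called, and the choroid plexus sums were 25.6 to 1005 CPM in the ELE and 30.9 to 1265 CPM in the sedentary libraries. Their part in the class counts was not tested.

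Mrps6 varied more than most members. It encodes a small subunit protein, lies on chr16:92058270-92112227 and shares 305 exonic bases with another gene on the same strand. Its level was 28.5 CPM in the left ELE library of TG9.1.4, 22.1 CPM in the right sedentary library of TG9.1.1 and 29.9 CPM in the SIT library of NT6.304, against 8.20 to 17.3 CPM in the other 17 libraries. On the right the log2 fold change was -0.48 (SE 0.30), which did not pass on p. Summed over 5 astrocyte markers, these 3 libraries stood at 3802 to 5071 CPM and the other 17 at 1510 to 4480 CPM, and the part of this in the level of Mrps6 was not tested.

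**Figure D2:**
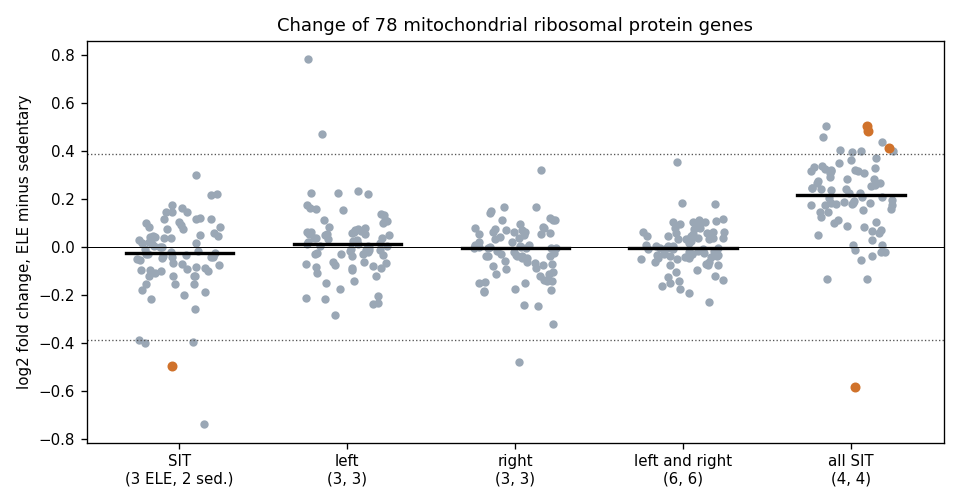
Log2 fold change, ELE minus sedentary, of each of the 78 members (points) in the SIT libraries the study compared, left, right, left and right together, and all 8 SIT libraries, with the number of libraries per group. The points lie around 0 in the first 4 comparisons (medians -0.02, 0.01, -0.0044 and -0.0044) and higher in the last (median 0.22).

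Over the 12 separately isolated libraries, with hemisphere as a term, the precision was greatest, with a median standard error of 0.078. No member was called by either tool, none had an unadjusted p under 0.05 in edgeR, and 77 of 78 estimates lay within 0.25 of 0. The background was 0.797% of 18810 genes called higher and 1.21% called lower. Mrpl1, a large subunit protein, had the smallest p, with a log2 fold change of 0.18 (SE 0.09) and an adjusted p of 0.924 in edgeR. Mrpl12 stood at 84.7 ± 5.96 CPM in ELE mice and 81.9 ± 7.12 CPM in sedentary mice (SD, n = 6 each), with a log2 fold change of 0.05 (SE 0.07).

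Whether the change with ELE differed between hemispheres was tested with an interaction term, in which a positive value is a higher change on the right. No member was called by either tool. Of all genes, 0.856% were called higher and 1.35% lower. In edgeR 2 members had an unadjusted p under 0.05, as did 490 of the 18810 genes tested. Mrps2 had -0.26 (SE 0.11) and Mrpl51, a large subunit protein, -0.24 (SE 0.11), and the lowest adjusted p of the members was 0.99996 in edgeR. The median over the members was -0.03, with 33 positive.

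The picture differed when all 8 SIT libraries were compared. Then 70 of the 78 members had a higher estimate in ELE mice, and the median log2 fold change was 0.22, against 0.0048 over all genes. The calls were 3 higher and 1 lower, where 2.29% of 17531 genes were called higher and 5.41% lower. Mrps26 (0.50, SE 0.17), Mrpl44 (0.49, SE 0.18) and Mrpl4 (0.41, SE 0.16) were called higher and Mrpl24 (-0.58, SE 0.19) lower, and the lowest adjusted p of these edgeR tests was 0.460. Mrps26 and Mrpl4 are named because of these values. Groups failed to overlap for 1 member, against 4.55% of all genes. In a fit of all 8 libraries that blocked by mouse number series (NT6, NT7.2, TG7.4), the median was -0.03 and no member was called. Only the NT6 series holds both ELE and sedentary mice, so this estimate rests on the NT6 mice. It cannot show what the NT7.2 and TG7.4 libraries contribute.

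This shift came with the sedentary libraries numbered NT7.2. The members took 0.180% and 0.191% of the counts in these libraries, 0.275% to 0.299% in the other 6 SIT libraries and 0.237% to 0.270% in the 12 separately isolated ones. Leaving the mitochondrial chromosome out of the totals gave 0.197% and 0.211% for the pair. With either library left out of the 8, the median log2 fold change was 0.14 (without NT7.2.3) and 0.17 (without NT7.2.4), and without both and NT6.304 it was the -0.02 given above. The TG7.4 mice were all ELE and the NT7.2 mice all sedentary, so that for these mice the effects of ELE and of the number series cannot be told apart.

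**Figure D3:**
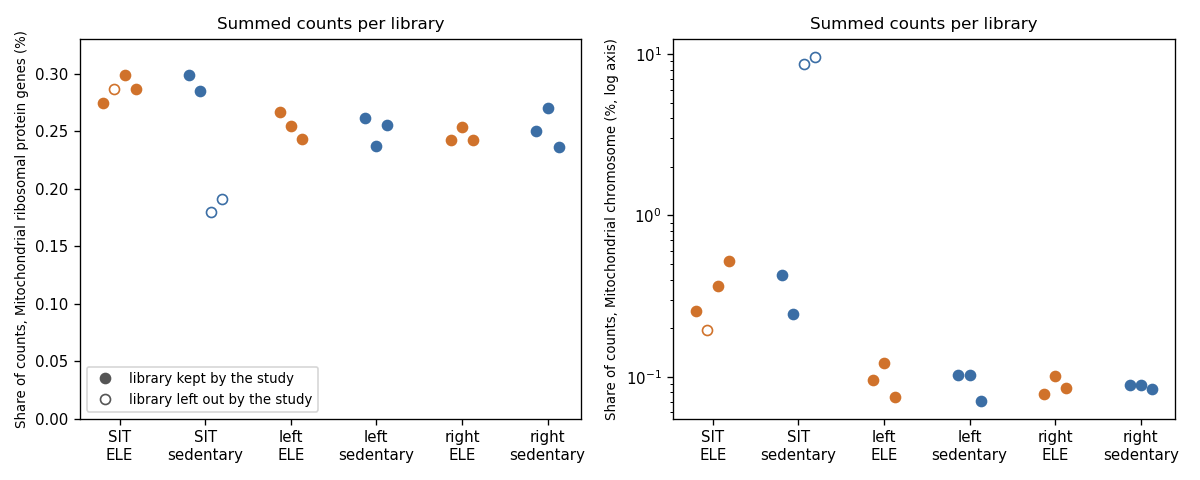
Share of all counts, in percent, taken by the 78 members and by the mitochondrial chromosome in each of the 20 libraries (points), by group. The pair of sedentary SIT libraries that the study left out has the lowest member shares, 0.180% and 0.191%, and the highest mitochondrial chromosome shares, 8.64% and 9.64%.

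Both libraries lay below all 18 others for 35 of the 78 members, a description chosen after these values were seen. The same held for 8.67% of the 19935 genes tested. Against the other 6 SIT libraries the median difference of the members was -0.49 on the log2 scale, 73 of 78 differences were negative, and the median over all genes was 0.024. The count was 24 of 51 for the large and 10 of 26 for the small subunit. Without the genes of the mitochondrial genome in the scaling, the median was -0.51.

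Mrps21 showed the greatest difference, at -1.15. It stood at 19.6 and 21.5 CPM in the pair and at 33.4 to 56.0 CPM in the other 6 SIT libraries. Mrpl12 stood at 56.0 and 60.7 CPM, below its 70.9 to 121 CPM in the other 18 libraries, a difference of -0.90 from the other SIT libraries. Mrps34 (-0.97) and Mrpl53 (-0.94) lay between these 2 members, and Mrpl54 (-0.87) and Mrpl34 (-0.85) came next. Mrps34 shares 763 exonic bases with another gene on the same strand, and Mrpl53 rests on few counts.

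A few members went the other way. Mrpl24 was higher in both libraries, at 10.7 and 11.98 CPM, than in the other 18, where its highest level was 10.2 CPM. Standing above all 18 in this way held for 1 of the 78 members and for 2200 of the 19935 genes tested. Mrps5 stood at 42.9 and 39.4 CPM against 36.0 to 40.7 CPM in the other SIT libraries, a difference of 0.10. Of the respiratory chain genes encoded in the nucleus, 52 of 83 lay below all other libraries, and of the genes for cytosolic ribosomal proteins 7 of 83. All 13 protein-coding genes of the mitochondrial genome lay above. All interneuron, microglia and red cell markers stood above all other libraries in the same pair, with 178 and 513 CPM for the sum of the red cell markers against 2.20 to 28.6 CPM. So did 3 of 5 oligodendrocyte markers, whose sum was 4114 and 4689 CPM against at most 3621 CPM, and 1 of 4 endothelium markers. Against the other 6 SIT libraries the median log2 difference was 0.39 for the oligodendrocyte, 2.09 for the endothelium and 0.77 for the choroid plexus markers, 0.21 for the astrocyte and -0.13 for the excitatory neuron markers. Their part in the lower member levels was not tested.

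**Figure D4:**
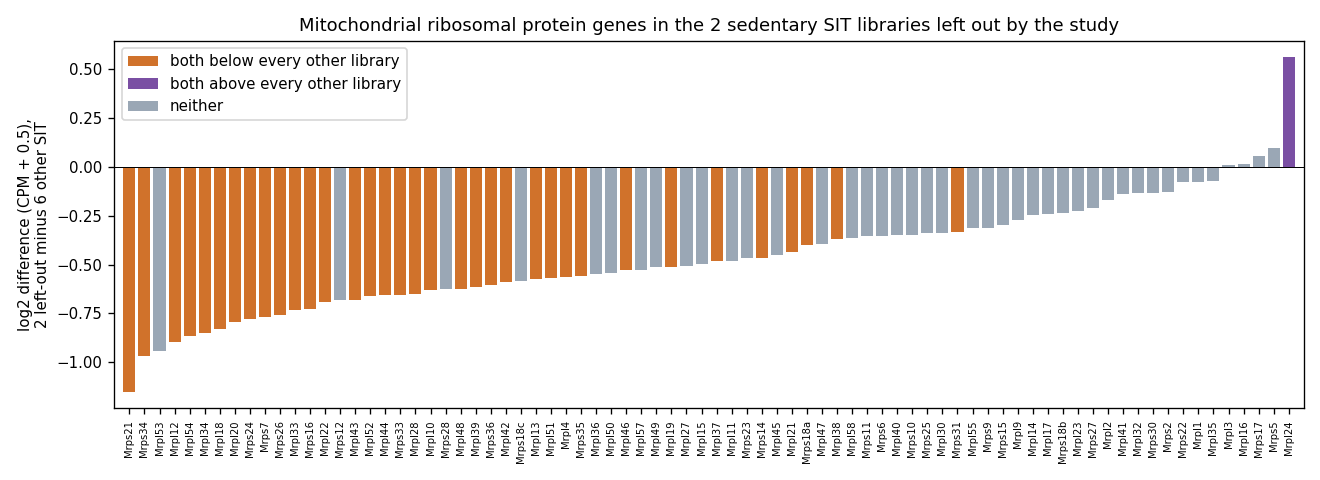
Log2 difference of each member between the 2 sedentary SIT libraries left out by the study and the other 6 SIT libraries, ordered by size, as bars coloured by whether both lay below, above or within the 18 other libraries. Of the 78 members, 73 lie below 0, from -1.15 for Mrps21 to 0.56 for Mrpl24.

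The isolation methods were compared without that pair, again as a description. The 6 SIT libraries lay above all 12 separately isolated libraries for 11 of the 78 members and below for none, where 2.23% of all genes lay above and 2.66% below. The median difference was 0.19 on the log2 scale, with 70 of 78 positive, and -0.0087 over all genes. Mrpl12 stood at 96.0 to 121 CPM against 70.9 to 91.0 CPM. Mrps5 stood at 36.0 to 40.7 CPM against 30.8 to 35.1 CPM. The genes of cytosolic ribosomal proteins had a median difference of 0.25 and those of the mitochondrial genome of 2.19. Cell type markers moved as well. The excitatory neuron markers summed to 6680 to 7781 CPM in the 6 SIT libraries and to 7987 to 10117 CPM in the separately isolated ones, without overlap, and the interneuron markers to 63.5 to 108 CPM and to 40.5 to 74.5 CPM. The sums of the other marker lists overlapped, and the part of any of these in the member values was not tested. Isolation method, bilateral or unilateral tissue, and the mice used cannot be told apart here.

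Whether members varied together across mice was described by correlations after removal of the group means. Over the 17 libraries that the study kept, the median Pearson r over the 3003 pairs of members was 0.221. Over the 12 separately isolated libraries it was 0.256. Over all 20 libraries it was 0.504, with 85.9% of the pairs positive, and it was 0.181 without the pair numbered NT7.2 alone and 0.548 without NT6.304 alone. The higher value over 20 libraries therefore rested on that pair. Over all genes tested it was 0.00075 in the 20 libraries. These are descriptions over mice that share group and scaling, and genes are not independent replicates.

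Each member was also set against the sum of the others. Over the 20 libraries the median r was 0.772, and over the 17 it was 0.444, with 73 of 78 above 0. Mrpl12 followed the sum most closely, at 0.980 over 20 and 0.888 over 17 libraries. Mrps7, a small subunit head protein, had 0.948 and 0.630, and Mrpl34 had 0.924 and 0.660. The lowest over 20 were Mrps5 (-0.37), Mrpl24 (-0.31) and Mrpl16 (-0.06), and over the 17 these stood at 0.124, 0.115 and 0.117. Without the NT7.2 pair alone the values of Mrps5, Mrpl24 and Mrpl16 were 0.150, 0.137 and 0.088, and without NT6.304 alone they were -0.41, -0.33 and -0.06. Mrpl51 had 0.755 over 20 and -0.52 over 17 libraries, -0.45 without the pair alone and 0.802 without NT6.304 alone.

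**Figure D5:**
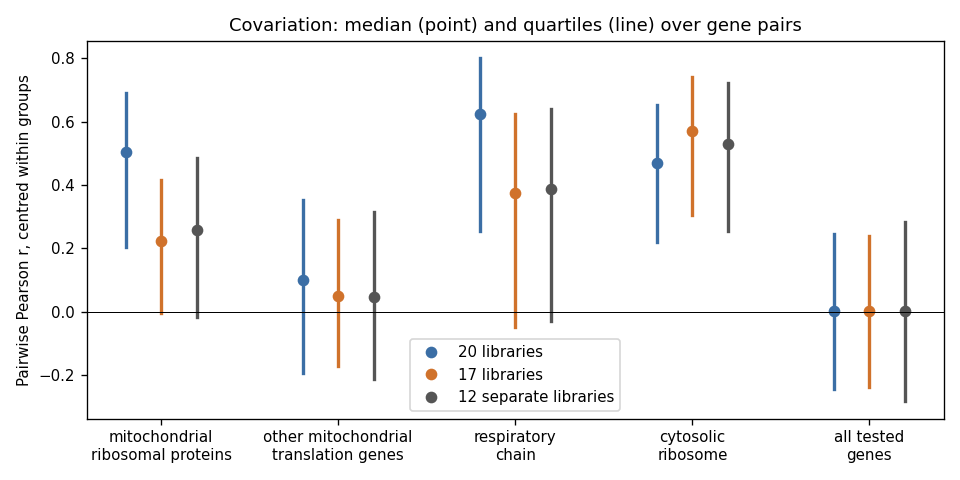
Median (point) and quartiles (line) of the Pearson correlation over all pairs of genes in each list, centred within groups, over all 20 libraries, the 17 the study kept and the 12 separately isolated. The members have a median of 0.504 over 20, 0.221 over 17 and 0.256 over 12 libraries, and all genes tested stand near 0. Over 17 libraries the respiratory chain (0.373) and cytosolic ribosome (0.570) stand above the members.

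The summed level of the members was compared with other lists over the 17 kept libraries. With the nuclear genes of the respiratory chain Pearson's r was 0.793 and Spearman's rho 0.738, and r was 0.740 without the 2 libraries farthest from the median. With 38 other genes of mitochondrial translation, r was 0.631, rho 0.485 and r without the 2 farthest 0.535. This list holds factors and assembly proteins, and also 5 structural proteins of the mitochondrial ribosome that have no Mrp symbol (Dap3, Ptcd3, Chchd1, Aurkaip1 and Gadd45gip1). Without these 5, a choice made after seeing the data, r was 0.627 and rho 0.505 over the other 33 genes, and r fell to 0.325 without the 2 farthest libraries, so this value rested in part on them. With the sum of the 5 alone r was 0.531 and rho 0.436. With the cytosolic ribosomal proteins r was 0.169 and rho 0.211, and r was 0.477 without the 2 farthest libraries, so this value rested on them. With the protein-coding genes of the mitochondrial genome r was 0.543, rho 0.600 and r without the 2 farthest 0.447. Over all 20 libraries, with the NT7.2 pair included, that r was -0.83 and rho -0.24. Lists share depth and scaling factors, so these values have no p.

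The other genes of the pathway gave few calls in the same tests. Among the 37 translation genes tested, these 5 included, none was called in SIT or on the left, and on the right Guf1, a translation factor of mitochondria, was called higher (0.47, SE 0.16) and Nsun4, an RNA methyltransferase of the mitochondrial ribosome, lower (-0.43, SE 0.16), each with an adjusted p of 0.99976 in edgeR. Nsun4 was also called for the interaction (-0.72, SE 0.25). Of 17 mitochondrial tRNA synthetase genes, Vars2, the valyl-tRNA synthetase, was called lower in SIT (-0.53, SE 0.18). Lars2, the leucyl-tRNA synthetase, was called lower on the left (-0.67, SE 0.20) and higher on the right (0.72, SE 0.12). Its interaction was 1.40 (SE 0.26), and the adjusted p of the edgeR test was 0.960 on the left, 0.590 on the right and 0.99996 for the interaction. The summed level of the synthetase genes ran from 284 to 617 CPM over the 20 libraries. For the list of translation genes the sum ran from 597 to 721 CPM. The part of this spread between libraries in the calls of Lars2 was not tested.

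Genes known to regulate nuclear genes of mitochondria were measured as well. None of Nrf1, Gabpa, Yy1, Ppargc1a, Tfam and Polrmt was called in any of the comparisons. For Ppargc1a, the coactivator of mitochondrial biogenesis, the log2 fold change was 0.07 (SE 0.16) in SIT, 0.03 (SE 0.11) on the left and -0.05 (SE 0.15) on the right. Tfam, which packages and transcribes mitochondrial DNA, had 0.08 (SE 0.13), -0.0069 (SE 0.09) and 0.03 (SE 0.12). Of 83 genes of cytosolic ribosomal proteins, 78 had a negative estimate in SIT, with a median of -0.31, and 18 were called lower, none of them at an adjusted p under 0.05 in edgeR. That share stood beside the 2.11% of all genes called lower, and its difference from the members was not tested. On the left none of these genes was called (median -0.05) and on the right 1 was called lower (median -0.03). The respiratory chain genes had 63 of 82 negative in SIT, 66 of 82 on the left and 48 of 82 on the right. The medians were -0.06, -0.07 and -0.01. None was called in SIT or on either side by edgeR, with 9 at an unadjusted p under 0.05 on the left and 0 on the right. Over both hemispheres 62 of 83 were negative (median -0.06) and 1 was called lower by edgeR, against 1.21% of all genes. For the interaction 62 of 83 had a positive estimate, with a median of 0.05 and none called by edgeR.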

How the data were processed

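TRAP-seq counts of 20 libraries were used. According to the methods, the authors aligned reads to GRCm38.p6 with STAR 2.7.3a, removed duplicates with Picard 1.87, counted read pairs on exons by strand with GenomicAlignments, and deposited raw counts per gene. Columns carry mouse numbers and were placed in groups through the study's list of mice. The 5 SIT libraries compared were found by matching its listed mean counts. A second table, with 24 columns, was not used. Libraries of a group differed by more than counting error (chi-square per gene 20.2 to 463 over 24 pairs).

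Symbols, lengths and coordinates came from the GENCODE annotation of GRCm38. Counts were scaled by TMM, filtered by filterByExpr and tested with edgeR 4.0.16 (R 4.3.3) by quasi-likelihood, with Benjamini-Hochberg adjustment over all genes tested. CPM were scaled over all 20 libraries, and correlations used log2(CPM + 0.5). A standard error was the absolute log2 fold change divided by the square root of F. The steps were tested on simulated data. DESeq2 1.42.0 was an alternative, beside other scaling, no filter, other SIT libraries, a block for the number series of the mice, and leaving out each library.

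Members named were the 5 with the smallest p in each test, those called, the 5 highest and lowest per length, the 3 highest and lowest in covariation, the Mrps18 genes and those with a listed role. Others were chosen after their values were seen. The members and lists were chosen with earlier results of these data known.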

Additional observations from a re-analysis of the deposited data

Results flagged for a closer look

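In groups of 4, a library was noted where its gap to the nearest other took more of the group's range than Dixon's 95% critical value allows. Over 74 groups tested, for the named members and the summed level, 3 libraries were noted, and chance gives about 1 in 20. Mrpl14 was lowest in the SIT ELE library of TG7.4.2, at 9.76 CPM, with the other 3 at 12.2 to 12.6 CPM. Mrpl16 was lowest in the SIT ELE library of NT6.304, at 14.0 CPM, against 15.2 to 15.5 CPM. The summed level of the members was lowest in the SIT ELE library of NT6.303, at 2706 CPM, against 2882 to 2909 CPM. Without NT6.303 the median log2 fold change of the members in SIT was 0.03.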

How the results depend on the processing

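The replicate numbers of the labels could not be matched to the mouse numbers of the columns. The number series of the mice, which holds 1 ELE and 1 sedentary mouse on each side, was fitted as a replicate block, and on the left, on the right, over both hemispheres and for the interaction it gave 0 members called, as reported, with medians of 0.01, -0.0063, -0.0071 and -0.03. The number of members called in SIT, 1 as reported, was 0 with DESeq2, 0 in the NT6 mice alone, 0 with NT6.304 added, 0 at an adjusted p under 0.05, 2 with a block for the number series of the mice (Mrpl55 and Mrps11) and 2 at the study's other fold limit of 0.38. With all 8 SIT libraries it was 4, also with RLE scaling or without the mitochondrial genome, and 5 with DESeq2. With the block, where the estimate from all 8 rests on the 4 NT6 mice, it was 0. Leaving NT6.304 out of the 8 gave 3, and leaving out NT7.2.3 or NT7.2.4 gave 2. The median log2 fold change in SIT, -0.02 as reported, was 0.22 with all 8 libraries, also with DESeq2, with RLE scaling or without the mitochondrial genome, 0.20 without NT6.304, 0.14 without NT7.2.3 and 0.17 without NT7.2.4. In the compared libraries it was -0.11 with the block, with 24 of 78 members positive, and -0.05 in the 4 NT6 mice alone. Both TG7.4 mice were ELE mice, so with the block the SIT estimates, the calls of Mrpl55 and Mrps11 included, rest on NT6.303 against NT6.305 and NT6.306. Without a filter on low counts, Mrps27 was called in SIT in place of Mrpl24, and 1 member, Mrps6, was called on the right and 1, Mrps6 again, for the interaction. The settings with parts of the 8 SIT libraries, and those without the pair or NT6.304 alone, were chosen after seeing the data. The causes were not tested.

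Leaving out 1 library at a time gave 0 to 2 members called in SIT, 0 to 1 on the left (Mrpl53 without TG9.2.2), 0 to 1 on the right (Mrps6 without TG9.2.1 and Mrpl54 without TG9.2.3), 0 over both hemispheres and 0 to 2 for the interaction. In SIT, Mrpl14 joined Mrpl24 without NT6.303, and Mrps11 was called in its place without TG7.4.2. The interaction calls were of Mrps21 without TG7.3.2 or TG7.3.3, Mrps6 without TG9.2.2, Mrpl54 without TG7.3.1 or TG7.3.4, and Mrpl46 and Mrpl54 without TG9.2.3. The medians ran from -0.04 to 0.03 in SIT, -0.02 to 0.05 on the left, -0.06 to 0.03 on the right, -0.03 to 0.03 over both and -0.07 to 0.01 for the interaction. The median pairwise correlation, 0.504 over 20 libraries, was 0.221 over the 17 kept, 0.181 without the NT7.2 pair alone, 0.548 without NT6.304 alone, 0.256 over the 12 separately isolated, 0.633 over the 8 SIT libraries and 0.399 by Spearman, where a move of more than 0.1 was counted. No named member changed direction while called. In separate isolation the deviations of paired mice had correlations of 0.18 (TG7.3), 0.016 (TG9.1) and 0.10 (TG9.2) on the left and 0.21, -0.07 and -0.09 on the right, so not every pair varied together. With 2 or 3 libraries per group and a median standard error of 0.10 to 0.14 in SIT, left and right, small changes of single members were not detectable.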
